A study of Homo sapiens with 6 samples.

Results

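The genes described here were 10 amino acid transporters of the plasma membrane: SLC3A2, SLC7A5, SLC7A11, SLC43A1, SLC7A1, SLC1A5, SLC1A4, SLC38A1, SLC38A2 and SLC6A9. They were chosen by symbol for their transport function and for good expression in carcinoma cells, with earlier results of these data known. All 10 were found among the 29476 genes of the count table, and all 10 were among the 15615 genes with enough reads to be tested. The libraries came from A549, an established human lung adenocarcinoma cell line, and were made from polyadenylated RNA with a strand-specific kit. In 3 libraries (siCtrl 1 to 3) the cells had received a nontargeting control small interfering RNA (siRNA), and in 3 (siDDX17 1 to 3) an siRNA against DDX17, an RNA helicase of the DEAD-box family. Each group rested on 1 siRNA duplex delivered with Lipofectamine 2000 in 1 cell line. GEO's labels call the control group a control plasmid, whereas its titles and the study's methods name an siRNA. The methods describe the 3 libraries of a group as biological replicates and give a harvest time of 48 h for the cells used in RT-qPCR.

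Amino acids cross the plasma membrane through carriers of several solute carrier families. Some carriers exchange one amino acid for another, some use the sodium gradient to concentrate their substrate, and others only let it run down its own gradient. SLC3A2 (the CD98 heavy chain) carries no substrate itself but brings light chains such as SLC7A5 and SLC7A11 to the surface. When amino acids are scarce, the kinase GCN2 phosphorylates eIF2α and the transcription factor ATF4 is made, and ATF4 bound with a C/EBP partner acts on many transporter and synthesis genes through a composite DNA element.

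Sequence windows from the transporter promoters are shown because this composite element is the one through which ATF4 acts, and genes of the ATF4 program are described below. The promoters were taken from RefSeq on GRCh38.p14, from 250 bases before to 50 bases after each annotated start, and 9 of the 10 genes were matched, with 16 promoters. The gene with no entry was SLC7A11, which was not searched. The element was searched as TGATGNAA on both strands, with no other motif searched there. It was found in 5 of the 16 promoters, 1 in each of 5 genes, and in 3.62% of all 35116 promoters. A gene was counted as having the element if any of its listed promoters held it, and by that count 4.46% of all 27305 genes had it. In SLC1A4, SLC3A2, SLC38A1 and SLC1A5 that promoter belonged to a start inside the gene's annotated span, not at its outer end. The windows are printed 5′ to 3′ on the strand that carries the match, with the match in capitals.
SLC1A4, chr2:64989381-64989410, minus strand: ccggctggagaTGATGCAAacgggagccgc
SLC3A2, chr11:62881725-62881748, minus strand: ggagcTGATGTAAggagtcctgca
SLC38A1, chr12:46266502-46266531, minus strand: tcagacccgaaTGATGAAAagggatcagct
SLC7A1, chr13:29595663-29595692, minus strand: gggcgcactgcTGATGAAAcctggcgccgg
SLC1A5, chr19:46784893-46784922, minus strand: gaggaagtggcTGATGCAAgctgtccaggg
Of the 5 genes with the element, SLC1A4, SLC38A1 and SLC7A1 fell after DDX17 knockdown and SLC3A2 and SLC1A5 did not pass the test described below. Of the 4 searched genes without it in these promoter windows, SLC6A9, SLC43A1 and SLC38A2 fell and SLC7A5 did not pass. Of all tested genes 24.3% were lower. A match describes the letters in the window and is not a measured binding site.

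The 3′ UTRs of the 10 genes were also searched, because an siRNA can act on transcripts that match the seed of its guide strand. The seed match of the DDX17 siRNA, TATTGCT (bases 2 to 8 of the antisense strand, read as its complement in the transcript), was present once in each of 3 canonical GENCODE 44 transcripts, printed here with the match in capitals.
SLC38A2, chr12:46360364-46360392, minus strand: agatgattgatTATTGCTataccaaatca
SLC7A1, chr13:29513256-29513284, minus strand: atttctaggcaTATTGCTgtcccttttgt
SLC7A11, chr4:138165944-138165972, minus strand: aataactttctTATTGCTctgaaagaaga
All 3 of these genes fell in the test described below. Of 12987 tested genes with a 3′ UTR, 14.5% held this match, and their median log2 fold change was -0.03. Of those with the match 28.3% were lower, beside 24.3% of all tested genes. The 3′ UTRs of SLC38A2, SLC7A1 and SLC7A11 had 2923, 5066 and 7859 bases, against a median of 1312 bases. The 14.5% is thus not a share for 3′ UTRs of their length. The corresponding match of the control siRNA, TGTCACG, stood in SLC7A11 and SLC7A5, against 3.07% of those genes. SLC6A9, the member with the largest difference, held neither. The part of siRNA off-target action in any transporter's difference was not tested.

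The libraries held between 30658136 and 39182371 reads. Levels between libraries are given as CPM, a gene's reads relative to the library total, after TMM scaling, which sets the library scale from genes that differ little. DDX17 itself stood at 177, 184 and 206 CPM in siCtrl and at 32.1, 30.8 and 30.4 CPM in siDDX17, a fall of 83.5%. Epithelial markers and the aldo-keto reductases and other markers typical of A549 were abundant in every library, with summed levels of 5534 to 6096 CPM and 13042 to 14518 CPM in siCtrl and of 4834 to 5266 CPM and 11412 to 11614 CPM in siDDX17. Among the 5 epithelial markers KRT8, KRT18 and KRT19 fell (log2 fold changes -0.28, -0.18 and -0.32), CDH1 did not pass, and EPCAM, which was low throughout, rose from 0.738, 1.08 and 0.827 CPM to 2.28, 2.22 and 2.21 CPM (log2 fold change 1.35, adjusted p = 7.68e-05). Markers of endothelial cells and fibroblasts summed to at most 0.649 CPM, and of the immune markers CD14 was the only one above 2.05 CPM, with CD3E unlisted. The summed immune markers ran from 22.3 to 29.9 CPM in siCtrl and from 30.4 to 30.8 CPM in siDDX17.

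One control library stood apart for these genes. In 8 of the 10 transporters siCtrl 1 was more than 25% above the mean of siCtrl 2 and siCtrl 3, compared with 13.6% of all tested genes. No other library was more than 25% above the mean of the other 2 libraries of its group in any of the 10 transporters. The median ratio of siCtrl 1 to its 2 companions was 1.37 over the 10 genes, ranging from 1.02 for SLC7A5 to 1.81 for SLC38A2. Fold changes of the transporters are therefore given with all 6 libraries and again without siCtrl 1. That library was left out because it deviated in these same genes. A smaller SE or adjusted p without it is therefore not stronger evidence of a difference.

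**Figure D1:**
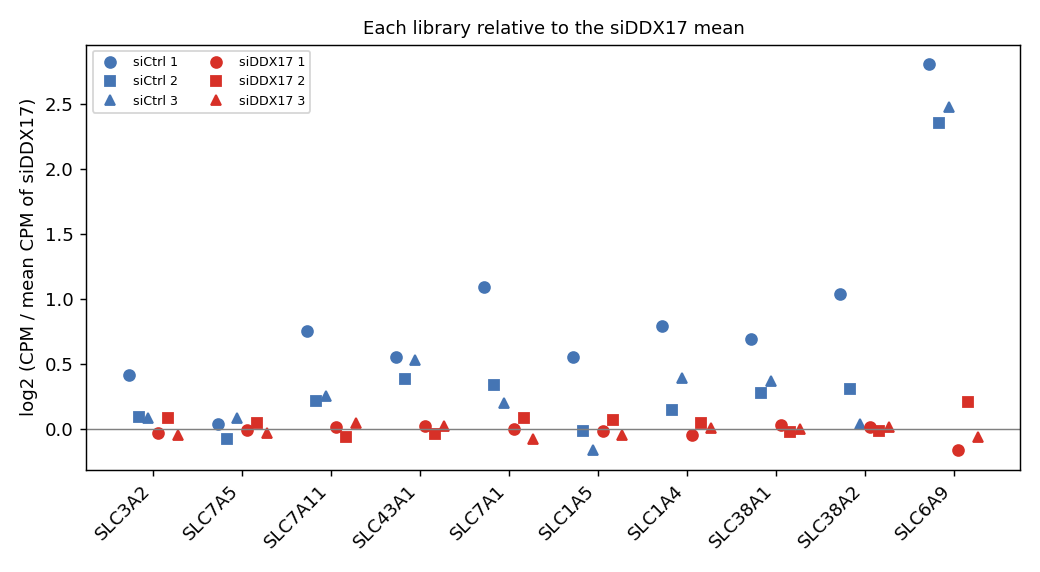
Each transporter in each library, as the log2 ratio of its TMM CPM to the mean of the 3 siDDX17 libraries, with siCtrl in blue and siDDX17 in red. The siCtrl 1 circle lies above the other 2 controls in 9 of the 10 genes, while SLC6A9 is far above the zero line in all 3 controls.

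After DDX17 knockdown 7 of the 10 transporters fell, none rose, and 3 did not pass the test (edgeR's quasi-likelihood test, Benjamini-Hochberg adjusted over all 15615 tested genes, adjusted p under 0.05). Among all tested genes 24.3% were lower and 24.5% higher. The members' median log2 fold change was -0.46, and that of all tested genes was 0.01. Without siCtrl 1 the same 7 transporters fell and none rose, beside 27% of all genes lower and 26.4% higher, and the median was -0.26. In 8 of the 10 every siDDX17 library lay below every siCtrl library, as it did in 27.7% of all tested genes. With the limits of the study's methods (p under 0.01 and a fold change over 1.5), 2 members were lower, SLC6A9 and SLC7A1, against 8.03% of all genes, and without siCtrl 1 only SLC6A9 did, against 7.83%. SLC6A9 was also the only member past a log2 fold change of 1 at adjusted p under 0.05, as 2.92% of all tested genes were in that direction. In these bulk libraries a lower level per cell cannot be told apart from fewer cells expressing a gene.

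The counts depended on how the libraries were scaled. Scaling by total reads alone moved the median of all genes by 0.12 on the log2 scale, and 67.7% of all calls were then higher in siDDX17, compared with 50.1% under TMM. Under that scaling 3 of the 10 transporters fell (SLC6A9, SLC43A1 and SLC38A1), beside 16% of all tested genes, and SLC7A11, SLC7A1, SLC1A4 and SLC38A2 did not pass (adjusted p = 0.0647, 0.0523, 0.0536 and 0.102). On the deposited FPKM values, which are also scaled by library totals, SLC6A9 and SLC43A1 fell with limma on log2(FPKM + 1), beside 15.2% of all tested genes. Below, CPM and edgeR fold changes are on the TMM scale unless another scaling is named, whereas FPKM levels and their sums are on the scale of library totals.

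**Figure D2:**
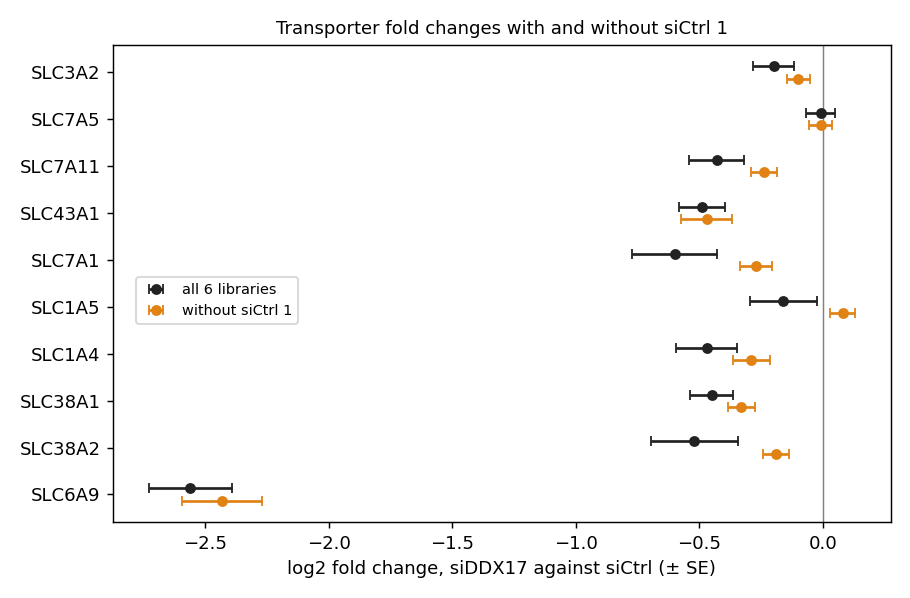
Log2 fold change of each transporter in siDDX17 against siCtrl with its standard error, from the edgeR fit of all 6 libraries (black) and of 5 libraries without siCtrl 1 (orange). SLC6A9 and SLC43A1 kept nearly the same value, whereas SLC7A1, SLC38A2 and SLC7A11 moved towards 0 and SLC1A5 crossed it.

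SLC6A9 (GlyT1, ENSG00000196517.11; GRCh38 chr1:43991500-44031467, minus strand), a sodium- and chloride-coupled carrier of glycine, differed most. It received 282, 174 and 248 reads in siCtrl 1 to 3 and 41, 50 and 44 reads in siDDX17 1 to 3, which is 8.33, 6.08 and 6.62 CPM against 1.06, 1.37 and 1.14 CPM. Every control library was thus far above every knockdown library. The fold change was -2.56 on the log2 scale (SE 0.168, adjusted p = 7.02e-08 by edgeR), or 5.89-fold lower. Without siCtrl 1 it was -2.43, and leaving out each library in turn gave -2.67 to -2.43. The gene overlaps CCDC24 on the other strand. CCDC24 read 4.1, 3.18 and 3.42 CPM in siCtrl and 4.26, 2.96 and 4.05 CPM in siDDX17 and did not pass the test (log2 fold change 0.07, adjusted p = 0.735). Whether reads were counted by strand is not given in the sources used here.

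Of the carriers built on the CD98 heavy chain, the cystine light chain fell and the heavy chain and the leucine light chain did not pass. SLC3A2 (ENSG00000168003.16; chr11:62856004-62888880, plus strand) stood at 983, 786 and 783 CPM in siCtrl and at 720, 781 and 715 CPM in siDDX17. The groups did not overlap, but siCtrl 2 and siCtrl 3 nearly touched siDDX17 2, and siCtrl 1 alone was far above the rest. It differed by -0.20 on the log2 scale (SE 0.0829, adjusted p = 0.0567). The fit that left out siCtrl 1 gave -0.10 (adjusted p = 0.0739). It passed without siCtrl 2 (adjusted p = 0.0274) or without siCtrl 3 (adjusted p = 0.0224), the fits in which siCtrl 1 made up a larger part of the control group.

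SLC7A5 (LAT1, ENSG00000103257.8; chr16:87830023-87869507, minus strand) exchanges leucine and other large neutral amino acids. Its levels of 999, 922 and 1035 CPM in siCtrl and 971, 1005 and 955 CPM in siDDX17 overlapped fully. The means were 985 ± 58.1 and 977 ± 25.7 CPM (SD, n = 3), and the log2 fold change was -0.01 (SE 0.06, adjusted p = 0.877), and again -0.01 with siCtrl 1 left out. It was the one member in which siCtrl 1 was not the highest control.

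SLC7A11 (xCT, ENSG00000151012.13; chr4:138164097-138242349, minus strand) imports cystine, the source of cysteine for glutathione, in exchange for glutamate. It stood at 153, 105 and 108 CPM in siCtrl and at 91.7, 86.9 and 93.8 CPM in siDDX17. The groups did not overlap, and siCtrl 1 was 1.44 times the mean of the other controls. Its log2 fold change was -0.43 (SE 0.112, adjusted p = 0.00663), and without siCtrl 1 it was smaller at -0.24 (SE 0.0522, adjusted p = 0.000174). The gene overlaps SLC7A11-AS1 on the other strand.

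SLC43A1 (LAT3, ENSG00000149150.8; chr11:57484534-57515780, minus strand) carries branched-chain and other neutral amino acids down their gradient without the CD98 heavy chain. Levels were 10.8, 9.58 and 10.6 CPM in siCtrl and 7.47, 7.16 and 7.45 CPM in siDDX17. All 3 controls were close together and above all 3 knockdown libraries. The log2 fold change of -0.49 (SE 0.0915, adjusted p = 0.000646) was almost the same without siCtrl 1, at -0.47 (adjusted p = 0.000212).

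SLC7A1 (CAT1, ENSG00000139514.12; chr13:29509414-29595688, minus strand) is the main carrier of arginine and lysine in many cells. It stood at 70.3, 41.6 and 37.8 CPM in siCtrl and at 33, 34.9 and 31.2 CPM in siDDX17. The groups did not overlap, but siCtrl 1 was 1.77 times the mean of the other 2 controls, and the control SD of 17.8 CPM compares with 1.86 CPM in siDDX17. SLC7A1 fell with a log2 fold change of -0.60 (SE 0.171, adjusted p = 0.0108), which was -0.27 without siCtrl 1 (adjusted p = 0.000451). With DESeq2 the difference did not pass (adjusted p = 0.084).

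The 2 sodium-dependent exchangers of the SLC1 family differed in their result. SLC1A4 (ASCT1, ENSG00000115902.10; chr2:64988477-65023865, plus strand), which exchanges alanine, serine and cysteine, stood at 39.3, 25.1 and 29.8 CPM in siCtrl and at 22, 23.4 and 22.8 CPM in siDDX17. All controls lay above all knockdown libraries. The log2 fold change was -0.47 (SE 0.123, adjusted p = 0.0063), and it was -0.29 without siCtrl 1 (adjusted p = 0.00131).

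SLC1A5 (ASCT2, ENSG00000105281.12; chr19:46774883-46788594, minus strand), the paralog best known for glutamine, stood at 371, 249 and 225 CPM in siCtrl and at 250, 264 and 244 CPM in siDDX17. Only siCtrl 1 was above the knockdown libraries, and siCtrl 3 was below all of them. The log2 fold change of -0.16 (SE 0.134, adjusted p = 0.354) turned to 0.08 when siCtrl 1 was left out (adjusted p = 0.177) and to -0.30 when siCtrl 3 was (adjusted p = 0.0462), so that its sign and its call rested on which control was included.

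Both sodium-coupled carriers of the SLC38 family fell. SLC38A1 (SNAT1, ENSG00000111371.15; chr12:46183063-46270017, minus strand), which takes up glutamine and other small neutral amino acids, stood at 107, 80.5 and 85.5 CPM in siCtrl and at 67.7, 65.4 and 66.2 CPM in siDDX17. The knockdown libraries were nearly equal and lay below every control. SLC38A1 fell with a log2 fold change of -0.45 (SE 0.0866, adjusted p = 0.00075), which was -0.33 without siCtrl 1 (adjusted p = 1.83e-06).

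SLC38A2 (SNAT2, ENSG00000134294.13; chr12:46358188-46372773, minus strand) is the system A carrier known for its induction by amino acid shortage. It stood at 417, 252 and 209 CPM in siCtrl and at 205, 201 and 205 CPM in siDDX17. The knockdown libraries were again nearly equal, whereas the controls were widely spread and the lowest of them, siCtrl 3, was just above the knockdown libraries. SLC38A2 fell with a log2 fold change of -0.52 (SE 0.176, adjusted p = 0.0248), which did not pass with DESeq2 (adjusted p = 0.155), and it was -0.19 without siCtrl 1 (SE 0.0543, adjusted p = 0.00393). The call was lost when siDDX17 1, 2 or 3 was left out, at adjusted p of 0.0647, 0.0974 and 0.0694.

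**Figure D3:**
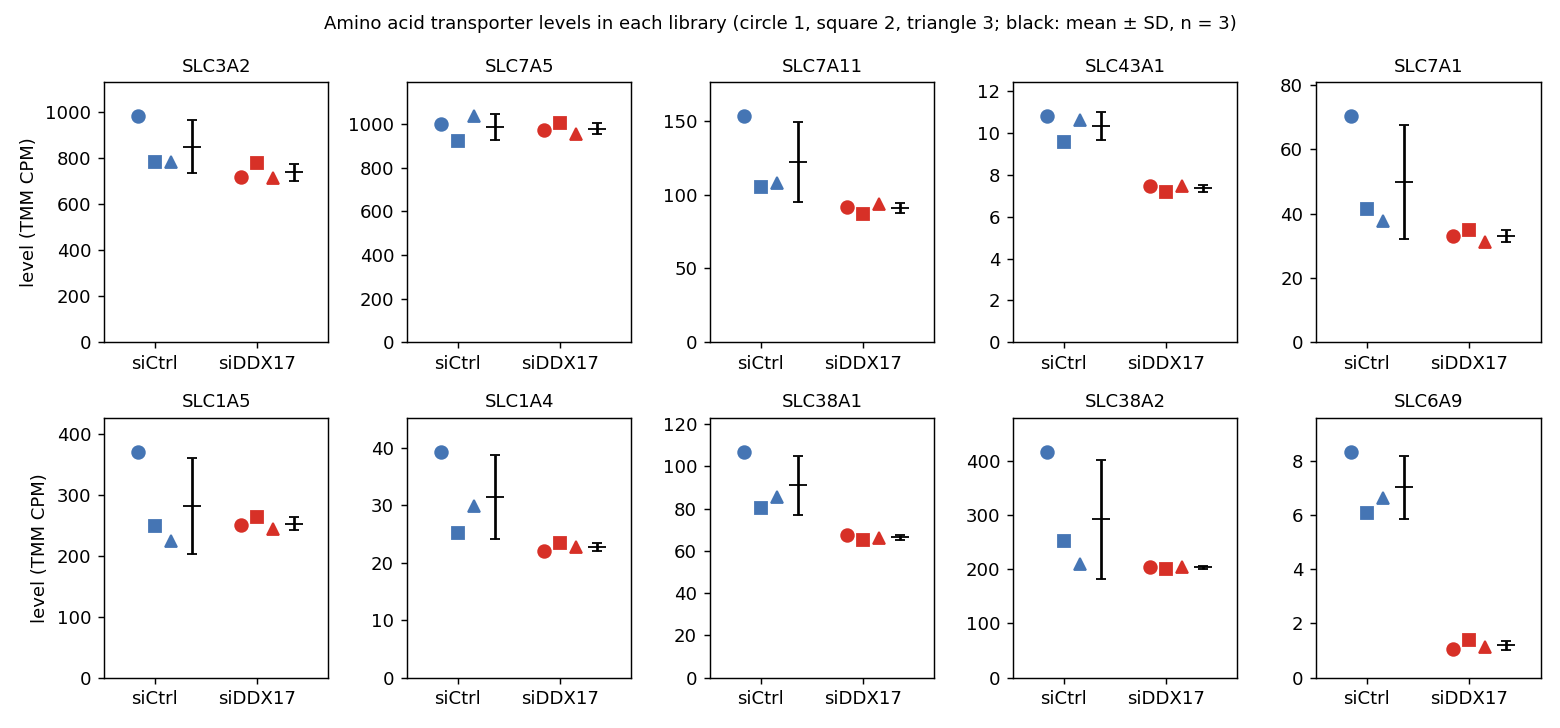
TMM CPM of each transporter in the 3 siCtrl libraries (blue) and the 3 siDDX17 libraries (red), with the mean and SD of each group in black (n = 3) and each axis starting at 0. SLC7A5 and SLC1A5 are the 2 genes whose groups overlap, and SLC6A9 falls from 7.01 to 1.19 CPM.

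Levels of different genes were compared per transcript length, as the deposited FPKM (fragments scaled by transcript length and by the mapped fragments of the library). In siCtrl the CD98 heavy chain SLC3A2 was the most abundant at 294 ± 45.6 FPKM (SD, n = 3), ranking 199th of the tested genes, followed by SLC7A5 at 197 ± 14.9 and SLC1A5 at 77.7 ± 23 FPKM. SLC38A2 followed at 53.8 ± 21.2 FPKM, and SLC7A11, SLC38A1, SLC7A1 and SLC1A4 lay between 11.6 and 6.15 FPKM. SLC43A1 at 3.5 ± 0.291 and SLC6A9 at 1.49 ± 0.284 FPKM were the least abundant. In this order 4 pairs of neighbours overlapped between libraries: SLC1A5 and SLC38A2, SLC7A11 and SLC38A1, SLC38A1 and SLC7A1, and SLC7A1 and SLC1A4.

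The order in siDDX17 was the same except that SLC1A4, at 4.85 ± 0.127 FPKM, stood just above SLC7A1, at 4.5 ± 0.2 FPKM, and this pair alone overlapped. SLC6A9 moved from rank 9594 to rank 13901 among the tested genes, at 0.277 ± 0.0306 FPKM. The 10 transporters together gave 660 ± 105 FPKM in siCtrl and 637 ± 14.7 FPKM in siDDX17. These sums overlapped, at 588 to 780 and 628 to 654 FPKM. On the TMM scale the sums did not overlap, at 2477 to 3158 CPM in siCtrl and 2341 to 2470 CPM in siDDX17. SLC3A2 and SLC7A5 made up 74.7 ± 3.82% of the FPKM sum in siCtrl and 77.2 ± 0.4% in siDDX17, and with SLC1A5 these were the 3 members that did not pass the test.

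FPKM ratios within each library were followed in 4 pairs, either a light chain to its heavy chain or paralogs with like substrates. They were compared with an exact two-sided permutation test whose smallest p for 3 against 3 libraries is 0.1. The ratio of the light chain SLC7A5 to its heavy chain SLC3A2 was 0.588, 0.678 and 0.765 in siCtrl and 0.78, 0.745 and 0.773 in siDDX17, so the groups overlapped (log2 difference 0.19, exact p = 0.2, adjusted over the 4 pairs 0.267). Without siCtrl 1 the difference was 0.09. For SLC7A11 to SLC3A2 the control ratios were 0.0428, 0.0368 and 0.0379 and the knockdown ratios 0.035, 0.0306 and 0.0361. Every knockdown ratio was lower, with a log2 difference of -0.21 (exact p = 0.1, adjusted 0.2), or -0.14 without siCtrl 1.

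The ratio of SLC1A4 to SLC1A5 was also lower in every knockdown library, at 0.0625, 0.063 and 0.0662 compared with 0.0753, 0.0715 and 0.0941. This log2 difference of -0.32 (exact p = 0.1, adjusted 0.2) was as large without siCtrl 1, at -0.36. The ratio of SLC38A2 to SLC38A1 ranged widely among controls, at 7.29, 5.84 and 4.55, and narrowly in siDDX17, at 5.63, 5.74 and 5.77. Its log2 difference of -0.02 (exact p = 0.7) changed sign without siCtrl 1, to 0.15 (exact p = 0.4).

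The other amino acid transporters of the plasma membrane moved in both directions. Of 22 listed genes, 12 could be tested, of which 6 fell and 4 rose, with a median log2 fold change of -0.23 (-0.26 without siCtrl 1, with 6 lower and 3 higher). Among all tested genes 24.3% were lower and 24.5% higher, or 27% and 26.4% without siCtrl 1. SLC1A2, SLC1A3, SLC6A14, SLC6A19, SLC7A3, SLC7A9, SLC7A10, SLC38A3 and SLC38A5 had too few reads, and SLC38A4 was unlisted. SLC7A6 (y+LAT2), another CD98 light chain that exchanges arginine for glutamine, fell from 39.6, 37.3 and 40.3 CPM to 19.6, 19.3 and 21.6 CPM (log2 fold change -0.95, adjusted p = 1.88e-07, and -0.96 without siCtrl 1). The proton-coupled carrier SLC36A1 and the taurine carrier SLC6A6 fell by 0.90 and 0.65 on the log2 scale, and SLC36A4 fell by 0.46, or by 0.92, 0.60 and 0.41 without siCtrl 1. The 4 genes that rose, named after their values were seen, were SLC7A7 (y+LAT1), SLC3A1, SLC7A2 (CAT2) and SLC16A10. SLC7A7, the paralog of SLC7A6, rose from 69.5, 69.9 and 75 CPM to 92.2, 103 and 95.2 CPM (log2 fold change 0.44, adjusted p = 5.90e-05, and 0.40 without siCtrl 1). SLC16A10 was low throughout, at most 1.48 CPM, and its call was lost whichever library was left out, at adjusted p of 0.0512 to 0.201. In this list siCtrl 1 was more than 25% above its companions in 1 of 12 genes.

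Genes of the amino acid response comprise the ATF4 program and its upstream kinases. Of 23 tested genes 13 fell and 2 rose, beside 24.3% and 24.5% of all tested genes, with a median of -0.37. Without siCtrl 1 the median was -0.23, with 13 lower and 4 higher, beside 27% and 26.4% of all tested genes. The lower count was 8 with DESeq2 or with total-read scaling and 5 with limma on FPKM. Of all tested genes 16% were lower with total-read scaling and 15.2% with limma on log2(FPKM + 1). The 8 that did not pass, named after their values were seen, were ASNS, DDIT4, PYCR1, NUPR1, TRIB3, CTH, ATF3 and PCK2. The first 5 had log2 fold changes of -0.06, -0.04, -0.10, -0.15 and -0.52. In ASNS siCtrl 1 was the lowest control, at 222 CPM against 245 and 295 CPM. Without siCtrl 1 ASNS passed as lower (log2 fold change -0.16, adjusted p = 0.0171 by edgeR). PSPH, named after its values were seen, then lost its call (adjusted p = 0.088), so the 13 lower genes were not all the same. siCtrl 1 was more than 25% above its companions in 14 of the 23 genes, as it was in 8 of the 10 transporters. MTHFD2, a mitochondrial folate enzyme, fell from 292, 157 and 151 CPM to 58.9, 56 and 56.6 CPM (log2 fold change -1.81, adjusted p = 4.80e-06, and -1.44 without siCtrl 1). PSAT1, an enzyme of serine synthesis, fell by 0.80 and GCN1, the activator of GCN2, by 0.51 on the log2 scale, or by 0.75 and 0.55 without siCtrl 1. ATF4 itself, named here for its role after its values were seen, stood at 608, 485 and 379 CPM in siCtrl and at 377, 375 and 363 CPM in siDDX17 (log2 fold change -0.40, adjusted p = 0.0139, and -0.23 without siCtrl 1). Its call was lost without siDDX17 2 (adjusted p = 0.0573) or siDDX17 3 (adjusted p = 0.0558).

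Stress targets of ATF4 were spread widely among the controls. CHAC1, which degrades glutathione, read 71.9, 29.3 and 3.52 CPM in siCtrl and 5.45, 6.06 and 5.32 CPM in siDDX17, so that siCtrl 3 lay below and the other controls above the knockdown libraries. DDIT3 (CHOP) was spread likewise, at 124, 44.7 and 6.7 CPM against 16.6, 15.6 and 13.5 CPM. SESN2, an inhibitor of mTORC1 that binds leucine, read 67.1, 32.3 and 17.3 CPM in siCtrl and 16.5, 18.7 and 16 CPM in siDDX17. All 3 passed the test (log2 fold changes -2.63, -1.93 and -1.19, adjusted p = 0.0048, 0.0194 and 0.00869), but their groups overlapped, and without siCtrl 1 the fold changes were -1.50, -0.72 and -0.53. DDIT3 also lost its call when siDDX17 1, 2 or 3 was left out, at adjusted p of 0.0526, 0.0857 and 0.0724. The transcription factors CEBPB and CEBPG both fell by 0.57, and by 0.45 and 0.24 without siCtrl 1. CEBPG lost its call without siDDX17 2 (adjusted p = 0.0736) or siDDX17 3 (adjusted p = 0.0602). With DESeq2, ATF4, DDIT3, SESN2 and CEBPG did not pass (adjusted p = 0.0688, 0.101, 0.0625 and 0.107). EIF2AK4 (GCN2) and ALDH18A1, an enzyme of proline synthesis, were the 2 genes that rose, by 0.34 and 0.27 on the log2 scale (0.35 and 0.23 without siCtrl 1). Without siCtrl 1 the gluconeogenic enzyme PCK2 and the stress factor ATF3, named after their values were seen, also rose. PCK2 stood at 60.7, 28.6 and 27.3 CPM in siCtrl and at 46.8, 48.7 and 46.6 CPM in siDDX17, and its log2 fold change went from 0.28 (adjusted p = 0.305) to 0.75 (adjusted p = 4.74e-13). For ATF3, which was at most 7.59 CPM, it turned from -0.23 (adjusted p = 0.574) to 0.41 (adjusted p = 0.0367). Why siCtrl 1 stood apart was not tested.

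Genes that report amino acids to the growth kinase mTORC1 moved in both directions. Of 37 tested genes 12 fell, a share near the 24.3% of all tested genes, and 4 rose, beside 24.5%. The median was -0.07. Without siCtrl 1 it was -0.06, with 16 lower and 5 higher, beside 27% and 26.4% of all tested genes. With total-read scaling it turned to 0.06, with 8 lower and 7 higher. Under that scaling 16% of all tested genes were lower and 5230 of the 15615 higher. siCtrl 1 was more than 25% above its companions in 4 of the 37. CASTOR1, an arginine sensor, fell from 10.9, 11.6 and 9.71 CPM to 5.29, 5.71 and 4.67 CPM (log2 fold change -1.04, adjusted p = 5.13e-06, and the same -1.04 without siCtrl 1). The Rag GTPase RRAGA fell by 0.78, SESN1, a paralog of SESN2, by 0.58, FLCN, which acts on the Rag GTPases, by 0.55, and the GATOR2 subunit SEH1L by 0.49 on the log2 scale. Without siCtrl 1 these 4 fell by 0.85, 0.73, 0.42 and 0.48. The 4 that rose were FNIP2, SESN3, ITFG2 and NPRL3, named after their values were seen, with log2 fold changes of 0.90, 0.67, 0.66 and 0.31 (0.88, 0.65, 0.79 and 0.32 without siCtrl 1).

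Cystine brought in by SLC7A11 feeds glutathione synthesis, and enzymes of that pathway also differed. Of 9 tested genes of glutathione and cysteine metabolism 5 fell and 2 rose, beside 24.3% and 24.5% of all tested genes, with a median of -0.24. Without siCtrl 1 the median was -0.27, with 6 lower and 2 higher, beside 27% and 26.4% of all tested genes. Enzymes of both steps that build glutathione fell. GCLC, the catalytic subunit of the first step, went from 160, 130 and 129 CPM to 89.4, 86.5 and 96.3 CPM (log2 fold change -0.62, adjusted p = 3.05e-05, and -0.53 without siCtrl 1). GSS, the second step, went from 118, 119 and 121 CPM to 70.5, 71.9 and 68.3 CPM (log2 fold change -0.76, adjusted p = 1.21e-07, and -0.78 without siCtrl 1). GSR, which keeps glutathione reduced, fell by 0.61, or by 0.60 without siCtrl 1. GGT1, which cleaves glutathione outside the cell, rose from 44.6, 49.7 and 48 CPM to 71.7, 76.2 and 74 CPM (log2 fold change 0.64, adjusted p = 1.67e-06, and 0.59 without siCtrl 1). The other gene that rose was CBS, at 1.12 to 2.13 CPM. Only uniquely mapped reads were counted, so CBS reads that also match a near-identical copy may be missing. In GSS, GGT1 and CASTOR1 the 3 controls were close together, unlike in most of the transporters.

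**Figure D4:**
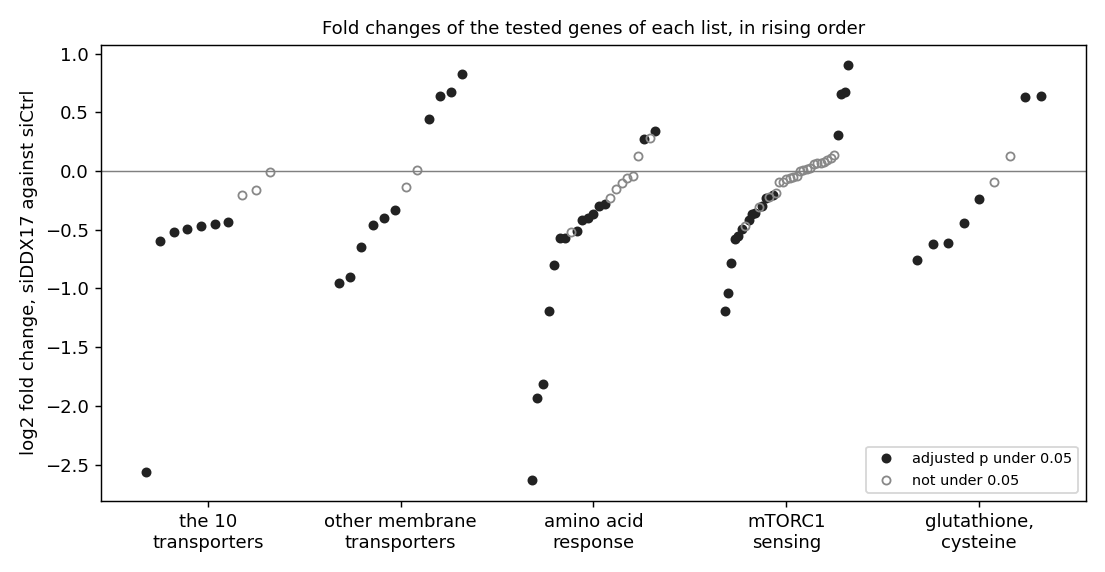
Log2 fold change of every tested gene in each list, in rising order, with filled points at adjusted p under 0.05. The 7 filled points of the transporters lie below 0, with SLC6A9 at -2.56, whereas each other list holds filled points on both sides.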

How the data were processed

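Per the study's methods, the authors trimmed reads, aligned them to GRCh38 with TopHat2 allowing up to 4 mismatches, and counted uniquely mapped reads. They deposited 1 table of raw read counts per gene and 1 of FPKM values. The annotation release and the strand setting of the counting are not given in the sources used here. Counts (29476 genes) were tested with edgeR 4.0.16 in R 4.3.3 (TMM, filterByExpr, quasi-likelihood test by group, Benjamini-Hochberg over 15615 genes). FPKM served for levels between genes and for ratios, and as an alternative to edgeR and DESeq2 1.42.0 with limma 3.58.1 on log2(FPKM + 1) and log2(FPKM + 0.1). It lacked 234 genes. The fit was tested on simulated counts for 15434 genes of siDDX17 against siCtrl, where it recovered 87 of 99 genes changed by log2 1 and 99 of 100 by log2 2. It also called 21 unchanged genes. Smaller changes, such as those of most transporters, and a library that deviates as siCtrl 1 did were not simulated. Members and lists were chosen with earlier results of these data known. In the other lists, every called gene past a log2 fold change of 1 was named, and of the rest up to 4 per list with the largest change among those called at a mean log2 CPM of at least 3. List symbols were matched to 124 of 126 genes. Positions are from GENCODE 44 on GRCh38.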

Additional observations from a re-analysis of the deposited data

How the results depend on the processing

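Of the 7 transporters that fell, SLC6A9 and SLC43A1 kept their call under all 15 alternative settings, 5 lost it under at least 1, and none reversed. These settings kept the limit of adjusted p under 0.05. The stricter fold limits given below were not among them, and SLC43A1 was not called under either. The cause of these changes was not tested. Under DESeq2, 6 transporters fell. SLC7A1 (adjusted p = 0.084) and SLC38A2 (0.155) lost the call, and SLC3A2 gained it (0.0278). With total-read scaling 3 transporters fell, with log2(FPKM + 1) 2 and with log2(FPKM + 0.1) 3, with the study's p and fold limits 2, and with a log2 fold change over 1 only 1, SLC6A9. With no low-count filter 9 fell, SLC3A2 and SLC1A5 among them, beside 3971 lower over all genes. The adjusted p of that edgeR fit were far smaller, such as 7.02e-16 for SLC38A2 against 0.0248 in the main fit. Its higher count is therefore not stronger evidence of a difference. SLC7A5, which was never called, took values of 0.02 with upper-quartile scaling, 0.11 with total reads and 0.12 under both FPKM fits, and -0.07 to 0.02 leaving out each library. SLC1A5 was 0.00 under both FPKM fits and -0.30 to 0.08 leaving out each library. The SLC38A2 to SLC38A1 difference ran from -0.19 to 0.15.

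Over all tested genes, 3819 were higher and 3798 lower. With the study's limits the fit used here gave 1713 and 1254, more in each direction than the paper itself reported. A log2 fold change over 1 gave 726 and 456, and total reads, log2(FPKM + 1) and log2(FPKM + 0.1) gave 2494, 2369 and 2374 lower. The same 3 settings gave 5230, 5205 and 5210 higher. DESeq2 gave 3418 higher and 3628 lower. The other transporters gave 2 higher and 3 lower with the study's limits and 0 and 0 past a log2 of 1. The amino acid response gave 8 lower with DESeq2 or total reads, 5 with either FPKM fit, 0 higher and 5 lower with the study's limits, 0 and 4 past a log2 of 1, and 2 to 4 higher leaving out each library. The mTORC1 list gave 7 higher with total reads, 8 higher and 7 lower with log2(FPKM + 1), 9 and 7 with log2(FPKM + 0.1), 3 lower with the study's limits, and 0 and 2 past a log2 of 1. Glutathione genes gave 3 lower with the study's limits and 0 and 0 past a log2 of 1.

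Replicate numbers were not used as pairs in the main test. Deviations from the group mean correlated from -0.0564 to 0.0407 in same-numbered libraries and from -0.0624 to 0.0566 in the others. With 3 libraries per group this cannot show whether same-numbered libraries were made together. A replicate block gave 3743 higher and 3738 lower genes and 7 lower transporters, with SLC6A9 at -2.55. DDIT3 lost its call under the block (adjusted p = 0.0552). Depth limits mainly SLC6A9, with 41 to 50 reads per knockdown library. With 3 libraries per group, differences smaller than the spread of siCtrl 1 from its companions are poorly resolved.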
